A study of Homo sapiens with 3 samples.

Results

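The 40 genes described here are a chosen list of genes of the germline, of the piRNA pathway and of meiosis, in undifferentiated human embryonic stem (ES) cells. The list was chosen by gene function with the measured intensities of these same 3 arrays in view, so the levels and differences of its members are descriptions and carry no test. A member was found through any array probe whose annotated symbol, current or older, is on the list. Of the 40, 33 were measured, by 41 probes, among 16225 genes with a named probe. The other 7 (PIWIL3, TDRD6, TDRD7, NANOS3, RAD21L1, GDF9 and FIGLA) had no probe named in the annotation used and were not analysed here. The cells were 3 established human ES cell lines, H9, BG03 and ES01, given in the series as biological replicates of human ES cells. All 3 grew on irradiated mouse embryonic fibroblasts in DMEM/F12 medium with KSR and the growth factor FGF2, so what they share includes the feeder layer. Each line was hybridised once, to 1 Illumina bead array with Cy3-labelled RNA. The comparison that the series names, with ES cells and epiblast stem cells of the mouse, was not analysed here.

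Germ cells carry a set of genes that most other cells keep silent. piRNAs are small RNAs bound by PIWI proteins that silence transposons in the germline, with Tudor domain proteins as scaffolds and an RNA methyltransferase, HENMT1, that protects the ends of the piRNAs. Meiosis uses its own cohesins and synaptonemal complex proteins to hold chromosomes together, and a recombinase, DMC1, to exchange DNA between them. In pluripotent cells many such genes have CpG-rich promoters and are held back by DNA methylation and by repressor complexes that read E2F-type sites and E-boxes, a relation worked out mostly in mouse ES cells.

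Values are intensities in array units after quantile normalization, given in the order H9, BG03, ES01. A gene was above background in a line when its probe exceeded the 95th percentile of 215 olfactory receptor probes, which was 11.2, 12.6 and 13.3 units in the 3 lines. The arrays held 2089034 to 2102778 beads, with a median of 42 beads kept per bead type. For bead types with a mean of 40 to 60 bead units the median standard error of that mean was 2.55 to 2.57 units, and for 200 to 1000 bead units it was 12.3 to 12.9 units. The bead types are not linked to genes here, so these errors are those of probes of like brightness. Bead units were not matched to the array units of the gene values, and the error is that within 1 array. It is a rough guide only. With 1 array per line the number of arrays limits every comparison: no test between lines exists, and a difference between lines holds the line, its culture and its array together. Of 10 pluripotent cell markers, 9 were above background in every line, among them POU5F1, NANOG and LIN28A, and the probe of SOX2 was above it in none.

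Most of the measured germline list was not detected in every line. Of 33 measured members, 8 (24.2%) passed the threshold in every line, a further 8 did so in some lines and 17 did so nowhere. Of all genes measured, 59.8% passed in every line and 67.8% in at least 1. The count of members was 12 in H9, 10 in BG03 and 13 in ES01, beside 64.4%, 63.5% and 63.1% of all genes. The 8 members above background throughout were the recombinase DMC1, the crossover factors MSH4 and MSH5, the cohesin REC8, the Tudor scaffold TDRD1, the transcriptional repressor PRDM1 and the testis genes TEX14 and TEX15. Members not above background had intensities from -10.5 to 11.3 units, with medians of 0.2, 1.73 and 1.13 units in H9, BG03 and ES01. Such a value bounds the signal of 1 probe and does not show that the transcript is absent.

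**Figure D1:**
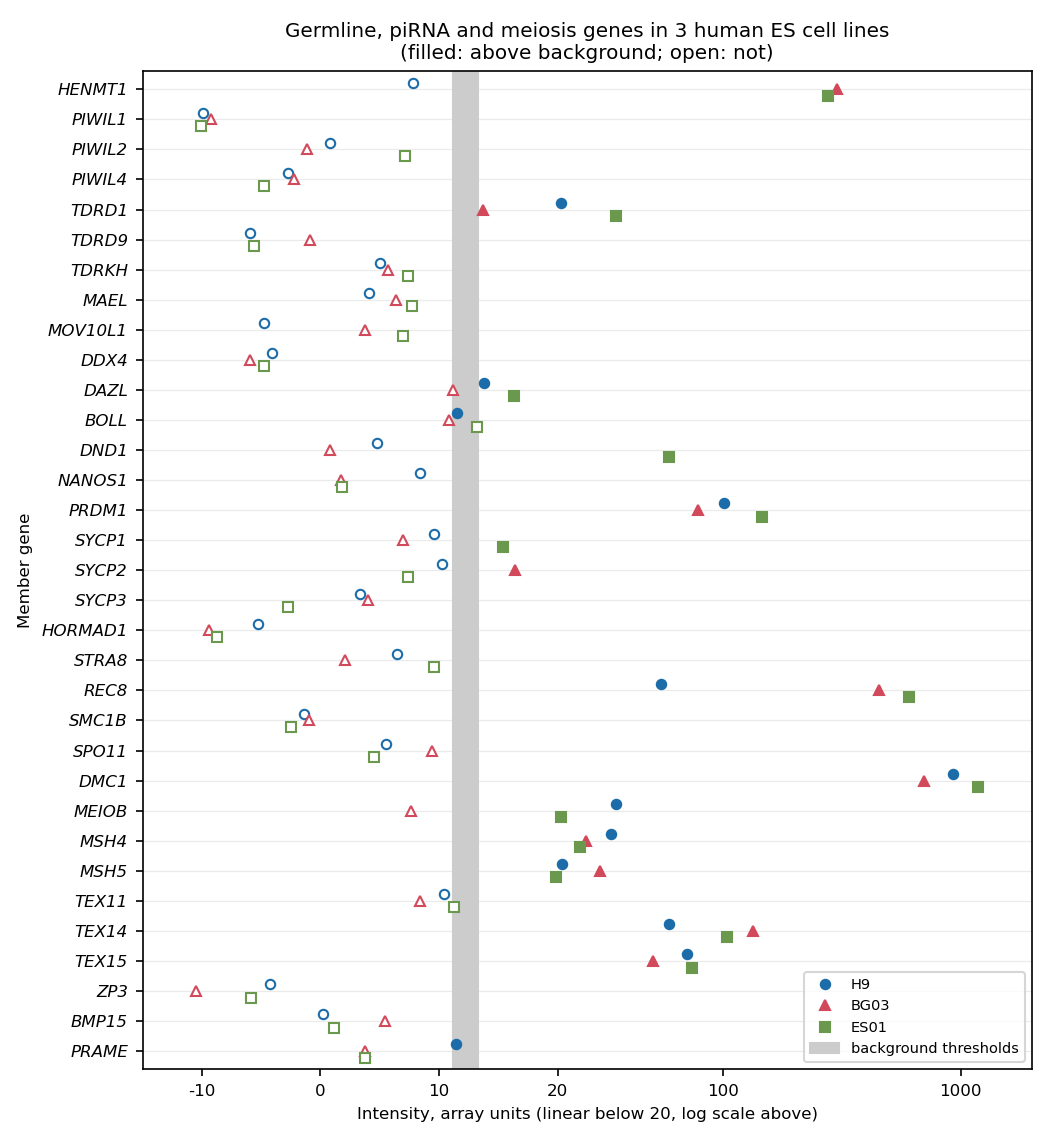
Intensity of each measured member (rows, in order of role) in H9 (circles), BG03 (triangles) and ES01 (squares); 1 point is 1 array, filled where above background, and the grey band spans the 3 background thresholds of 11.2 to 13.3 units. DMC1 lies far right of the band in all lines, whereas HENMT1, REC8 and DND1 have lines wide apart.

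Of the piRNA members, 1 of 9 measured was above background in all lines, beside 59.8% of all genes, and 1 more in some. The PIWI proteins PIWIL1, PIWIL2 and PIWIL4, which bind the piRNAs themselves, were below background everywhere. So were the Tudor genes TDRD9 and TDRKH, the transposon silencing factor MAEL and the helicase MOV10L1, which in mouse hands precursors to the PIWI proteins. TDRD1, a Tudor scaffold for PIWI proteins, measured 20.6 units in H9, 13.7 in BG03 and 35.1 in ES01. The BG03 value was only 1.08 units above its threshold. The error of a dim bead type on that array was 2.55 bead units, a scale not matched to array units. TDRD1 was 2.57-fold lower in BG03 than in ES01, a gap that shrank to -0.19 on the log2 scale with background set at the 99th percentile.

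HENMT1 had the widest gap between lines of the 40 genes. Its probe read 7.77 units in H9, under the threshold, against 301 units in BG03 and 276 units in ES01. HENMT1 was thus at least 26.9-fold lower in H9 than in BG03 and at least 24.6-fold lower than in ES01, while BG03 and ES01 differed by 0.13 on the log2 scale. By size, each H9 difference ranked 1st among 11004 genes, those that passed the threshold somewhere. The size of these bounds rests on the background chosen. With background at the 99th percentile the log2 difference was -3.58 for H9 minus BG03 and -3.45 for H9 minus ES01. With a floor of 50 units it was -2.59 and -2.46. HENMT1 is read by 1 probe, and whether a base difference under that probe lowers its signal in H9 was not tested. HENMT1 lies on chromosome 1 (GRCh38.p14, 108648295 to 108661474). Of its nearest measured neighbours, the splicing factor gene PRPF38B, 30.8 kb away, was at 77.6, 110.1 and 132 units, and STXBP3, a vesicle fusion gene, at 104.6, 80.3 and 104.7 units. The mitochondrial carrier gene SLC25A24, 448 kb away, was at 32.3, 15.8 and 37.8 units, lowest in BG03 and with H9 above BG03 by 1.03 on the log2 scale. EEIG2 passed the threshold nowhere.

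The 250 bases before the annotated start of HENMT1 are shown because of that gap (chr1:108661475-108661724, GRCh38.p14, minus strand, RefSeq). CpG dinucleotides are in capitals, and 19 fall in the stretch.
HENMT1: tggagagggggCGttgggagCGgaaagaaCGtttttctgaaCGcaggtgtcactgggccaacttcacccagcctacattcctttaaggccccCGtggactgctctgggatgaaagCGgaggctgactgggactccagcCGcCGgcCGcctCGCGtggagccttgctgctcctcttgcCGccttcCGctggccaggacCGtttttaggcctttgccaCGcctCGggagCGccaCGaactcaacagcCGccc

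A second piRNA list held further factors, several of them also used outside the germline. Of 16 measured genes of it, 10 (62.5%) were above background in all lines, near the 59.8% of all genes. HSP90AA1, a chaperone, SND1, a Tudor-domain nuclease, and PRMT5, the enzyme that methylates the arginines Tudor domains bind, were at 3582 to 4076, 1511 to 1906 and 922 to 1073 units. The remaining genes above background in all lines were WDR77, TDRD3, PARN, DDX25, MYBL1, KIF17 and GTSF1. The germline factors ASZ1, PLD6, TDRD5, FKBP6, PNLDC1 and EXD1 were below background everywhere.

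Among RNA-binding proteins of germ cells, 0 of 5 measured were above background in all lines, beside 59.8% of all genes. DDX4, the VASA helicase that marks germ cells, and the translational repressor NANOS1 were above it in none. DND1, which in germ cells shields messages from microRNAs, read 4.73 units in H9 and 0.8 units in BG03, both under the threshold, and 59.1 units in ES01. It was at least 5.27-fold lower in H9 than in ES01 and at least 4.7-fold lower in BG03 than in ES01, and H9 and BG03 have no fold between them. With background at the 99th percentile, H9 minus ES01 was -1.23 on the log2 scale and BG03 minus ES01 was -0.94, the latter short of 2-fold. DND1 (chromosome 5, 140670794 to 140673576) overlaps the end of WDR55 by 1552 bases, and WDR55 measured 131, 185 and 235 units, also highest in ES01. Whether the DND1 probe reads that transcript was not tested. HARS1, the histidyl-tRNA synthetase gene 0.329 kb from DND1, was at 987, 982 and 1087 units, HARS2 at 509, 554 and 638 units and IK at 294, 285 and 288 units. DAZL, a translation regulator, read 13.8 and 16.3 units in H9 and ES01 and 11.2 units in BG03, where it was not above background. Its relative BOLL passed the threshold in H9 alone, at 11.5 units, by 0.293 units, and a second BOLL probe passed in BG03 alone, at 14.2 units. Both sit so close to background that they carry no order between the lines.

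The stretches before the starts of DND1 (chr5:140673577-140673826, minus strand) and DAZL (chr3:16605424-16605673, minus strand) are shown as a member seen in 1 line beside one at the edge of detection. They hold 17 and 28 CpG dinucleotides, in capitals.
DND1: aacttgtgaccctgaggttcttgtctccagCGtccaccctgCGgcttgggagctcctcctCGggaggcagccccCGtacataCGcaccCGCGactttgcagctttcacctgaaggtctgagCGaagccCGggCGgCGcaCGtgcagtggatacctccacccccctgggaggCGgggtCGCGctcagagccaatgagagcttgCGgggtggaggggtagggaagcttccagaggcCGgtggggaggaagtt
DAZL: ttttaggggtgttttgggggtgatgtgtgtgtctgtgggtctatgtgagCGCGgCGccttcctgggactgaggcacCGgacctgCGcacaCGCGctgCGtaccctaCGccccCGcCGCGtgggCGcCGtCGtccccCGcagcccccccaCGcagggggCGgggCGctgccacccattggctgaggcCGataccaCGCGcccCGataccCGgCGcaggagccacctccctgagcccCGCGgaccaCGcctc

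PRDM1, also called BLIMP1, specifies germ cells in mouse and also acts in other lineages. It measured 101 units in H9, 77.9 in BG03 and 146 in ES01 (log2 SD 0.46, n = 3), above background throughout and without a 2-fold gap. Those values come from a probe whose ID marks it as reading all isoforms. The 2 isoform probes were not above background in any line, at -10.3 to -6.33 and 1.2 to 4.37 units. Of 18 further regulators and markers of primordial germ cells, 15 (83.3%) were above background in all lines, beside 59.8% of all genes. IFITM1 (8642, 6438 and 8078 units), IFITM3 (5253, 5370 and 5046) and ALPL (2792, 2759 and 1939), surface proteins and a phosphatase shared by germ cells and pluripotent cells, were at like levels in the 3 lines. So were TFAP2C (226, 253 and 253 units), PRDM14 (87.3, 64.9 and 92.6) and SOX17 (99.2, 92.4 and 105), transcription factors of human primordial germ cells. DPPA3, TCL1A and UTF1, genes of pluripotent and early germ cells, differed at least 2-fold. DPPA3 (26.4, 26.5 and 71.95 units) and TCL1A (22.5, 25.4 and 84.4 units) were highest in ES01, and UTF1 (717, 307 and 342 units) was highest in H9. NANOS2, KITLG and ARID5B passed the threshold nowhere.

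Of 12 meiosis members measured, 4 (33.3%) passed in every line, beside 59.8% of all genes, 3 in some and 5 nowhere. STRA8, which starts meiosis in response to retinoic acid, was not above background in any line, nor were the lateral element gene SYCP3, the axis gene HORMAD1, the cohesin SMC1B and SPO11, whose product cuts DNA to begin recombination. SYCP1, the transverse filament of the synaptonemal complex, passed in ES01 alone (15.4 units, 2.14 above the threshold) and SYCP2 in BG03 alone (16.4 units, 3.82 above it). Both margins are small. The error of a dim bead type was 2.55 to 2.57 bead units, a scale not matched to array units.

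DMC1, the recombinase of meiosis, was detected in every line, at 931 units in H9, 699.5 in BG03 and 1179.5 in ES01 (log2 SD 0.38, n = 3). The lines differed by at most 0.75 on the log2 scale, in BG03 minus ES01, which is within the middle 95% of genes (-0.97 to 0.86). DMC1 is read by 1 probe, and the reference table lists no gene that overlaps it. MSH4 and MSH5, which act as a pair at crossovers, were dim but above background throughout. MSH4 measured 33.6, 26.4 and 24.8 units and MSH5 measured 21.0, 30.3 and 19.8 units, neither with a 2-fold gap. Of the other probes of MSH5, one isoform probe read 14.8, 20.0 and 11.97 units and the second was not above background. MEIOB, a DNA-binding partner of recombination, read 35.2 units in H9, 7.6 in BG03 and 20.6 in ES01. It was at least 2.8-fold higher in H9 than in BG03, where it was not above background; with background at the 99th percentile that difference was 0.20 on the log2 scale. MEIOB overlaps the gene FAHD1 (536, 474 and 677 units) by 6222 bases, and whether the MEIOB probe reads it was not tested.

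REC8, the meiotic kleisin that replaces RAD21 in cohesin, had the second wide gap. It measured 54.6 units in H9, against 452 units in BG03 and 606 units in ES01. REC8 was 8.27-fold lower in H9 than in BG03 and 11.1-fold lower than in ES01, while BG03 lay 1.34-fold lower than ES01. By size its H9 differences ranked 11th and 12th among 11004 genes. REC8 lies on chromosome 14 (24172080 to 24180923) and overlaps the importin gene IPO4 by 705 bases. IPO4 (266, 353 and 318 units) and the neighbours IRF9 (77.6, 108 and 82.1 units) and RNF31 (157, 177 and 146 units) differed by less than 0.50 on the log2 scale between any lines, and TSSK4 was not above background. Other cohesin genes gave mixed values. RAD21 (1665, 1412 and 1898 units) and SMC3 (669, 659 and 777 units) were detected alike in the lines, and STAG3, a meiotic cohesin subunit, read 10.5 units in H9, under the threshold, and 18.6 and 31.9 units in BG03 and ES01. The H9 minus ES01 difference of STAG3, with H9 at its threshold, was -1.51 on the log2 scale.

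The stretches before the starts of REC8 (chr14:24171830-24172079, plus strand) and DMC1 (chr22:38570184-38570433, minus strand) are shown because these meiosis genes differ in how even they were across lines. CpG dinucleotides are in capitals, 21 in REC8 and 23 in DMC1. An E2F-type site, TTCCCGC, begins 15 bases before the start of REC8.
REC8: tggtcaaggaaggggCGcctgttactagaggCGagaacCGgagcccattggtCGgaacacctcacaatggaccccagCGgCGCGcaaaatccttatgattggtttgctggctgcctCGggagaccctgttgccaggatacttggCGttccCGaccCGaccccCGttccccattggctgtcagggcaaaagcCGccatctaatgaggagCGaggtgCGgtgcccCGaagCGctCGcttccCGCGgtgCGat
DMC1: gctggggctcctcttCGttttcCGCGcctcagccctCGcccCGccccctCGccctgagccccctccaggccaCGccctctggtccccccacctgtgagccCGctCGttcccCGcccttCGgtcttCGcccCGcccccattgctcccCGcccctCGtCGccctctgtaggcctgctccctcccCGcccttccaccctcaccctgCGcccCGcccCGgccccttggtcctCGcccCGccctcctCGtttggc

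**Figure D2:**
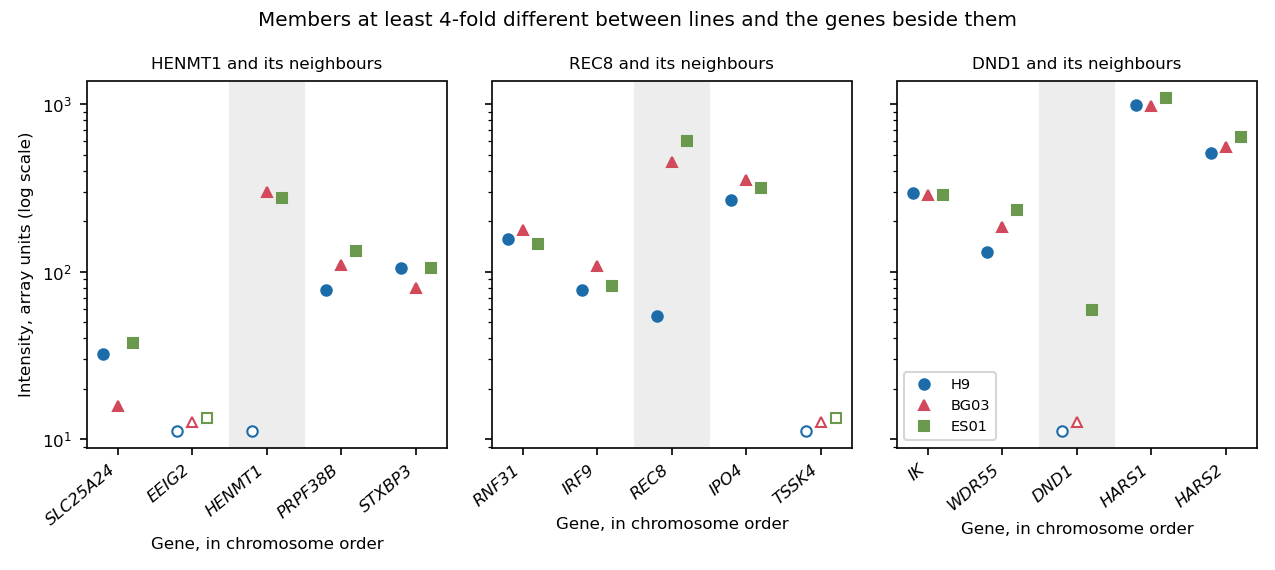
Intensity (log scale) of HENMT1, REC8 and DND1 (shaded) and of the 2 nearest measured protein-coding genes on each side, in H9 (circles), BG03 (triangles) and ES01 (squares); open symbols are not above background and stand at the threshold of their array. The shaded genes were chosen for a gap of at least 4-fold between lines, so their wider gaps follow from that choice.

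Beside 59.8% of all genes, 13 (44.8%) of 29 measured genes of a further meiosis list were above background in all lines. MCM8 (3356, 3577 and 3073 units), a helicase of recombination, CCNB1IP1 (2268, 2160 and 1842 units), a ubiquitin ligase of crossovers in mouse, and RAD21 were among them, and several also serve dividing body cells. MND1 (308, 452 and 344 units) and PSMC3IP (45.0, 50.5 and 27.8 units), which assist DMC1, were above background in every line. RNF212, a crossover factor, ran opposite to REC8: it read 66.2 units in H9 and 11.6 and 8.97 units in BG03 and ES01, both under the threshold. With those values at the threshold, the difference was 2.39 for H9 minus BG03 and 2.32 for H9 minus ES01 on the log2 scale. MLH3 and HSF2BP passed the threshold in H9 alone, at 14.5 and 16.8 units. PRDM9, HORMAD2, SYCE1, TEX12, SPATA22, SHOC1, IHO1 and KASH5 were below background everywhere.

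The testis-expressed members split. TEX14, needed for the bridges between germ cells, measured 58.8 units in H9, 133 in BG03 and 103 in ES01. It was 2.26-fold lower in H9 than in BG03, and its isoform probe was not above background. With the probes of a gene averaged, or the lowest taken, that call was lost. TEX15, a testis gene needed in mouse for meiotic recombination and transposon silencing, measured 70.5, 50.5 and 74.0 units (log2 SD 0.30, n = 3). The X-linked crossover gene TEX11 lay just under the thresholds at 10.4, 8.43 and 11.3 units. PRAME, an antigen of testis and tumours, passed in H9 alone by 0.193 units. Of the oocyte members, 0 of 2 measured were above background in any line: ZP3, a protein of the egg coat, and the growth factor BMP15. In a further oocyte list 3 of 15 (20.0%) were above background in all lines, beside 59.8% of all genes. They were NLRP2 (1259, 1138 and 1202 units), NLRP7 (65.6, 71.4 and 72.5 units) and SOHLH2 (30.65, 27.5 and 25.05 units). None of the genes of that list differed 2-fold.

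**Figure D3:**
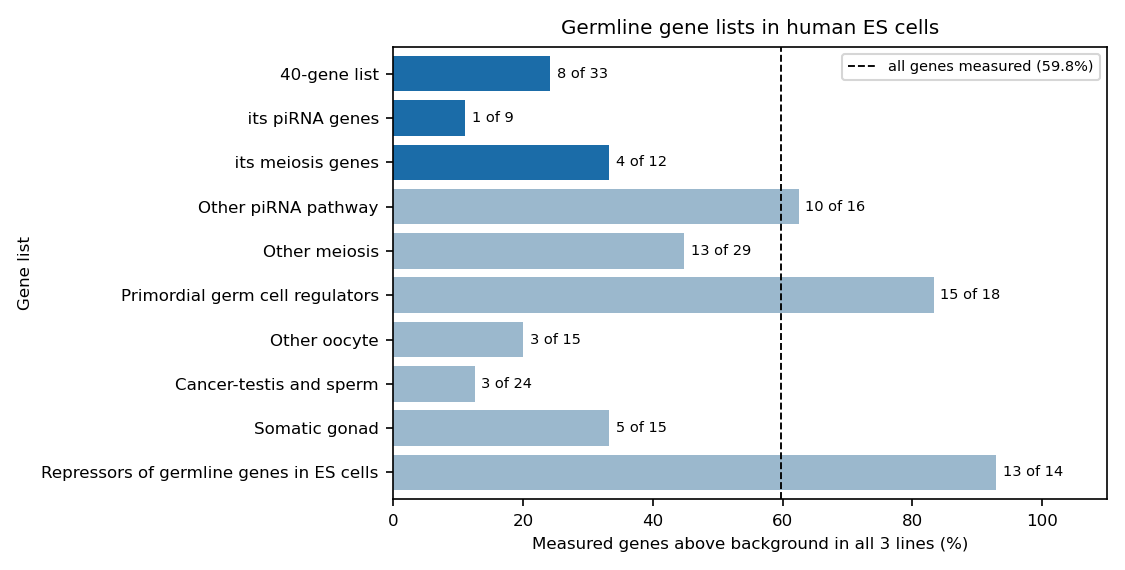
Share of the measured genes of each list that were above background in all 3 lines (bars from 0, in percent), with the counts at the bar ends; the dashed line is the 59.8% of all genes measured. The 40-gene list stands at 8 of 33, its piRNA genes at 1 of 9, and the repressors of germline genes at 13 of 14.

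Genes listed as repressors of germline genes in ES cells were mostly detected, and their action in these lines was not tested. Of the 17 listed, E2F6, MGA and RNF2 had no named probe. Of 14 measured, 13 (92.9%) were above background in all lines, beside 59.8% of all genes, and EHMT1 in BG03 and ES01. DNMT3B (6715, 7558 and 9013 units), CBX3 (2462, 3011 and 2978 units) and DNMT1 (2635, 3241 and 2544 units), methyltransferases of DNA and a heterochromatin protein, were detected alike. PCGF6 (418, 323 and 312 units), L3MBTL2 (328.5, 375 and 361 units) and MAX (27.0, 23.3 and 28.8 units), parts of an E-box and E2F-reading repressor complex, showed no 2-fold gap either. These lists and the 40 genes overlap in no member.

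Differences between lines were compared pair by pair over the 16 members above background in at least 1 line. Members that passed in 1 or 2 lines entered through the lines where they are high, so their count is a description only. Between H9 and BG03, 4 of 16 differed at least 2-fold: HENMT1, REC8 and TEX14 lower in H9 and MEIOB higher, where 3.24% of all 11004 genes did so, 1.74% lower in H9 and 1.5% higher. Between H9 and ES01, 3 of 16 did, all lower in H9 (HENMT1, REC8 and DND1), beside 5.14% of all genes, 2.9% lower in H9 and 2.24% higher. Between BG03 and ES01, TDRD1 and DND1 were at least 2-fold lower in BG03, beside 3.75% of all genes, with 2.27% lower in BG03. In any pair, 6 of 16 members and 8.29% of all genes passed. The median log2 difference of the 16 was -0.14 for H9 minus BG03, -0.29 for H9 minus ES01 and -0.33 for BG03 minus ES01, beside -0.03, -0.01 and 0.01 for all genes. These medians hold an offset from the unequal thresholds: a member under background in both lines enters with a difference set by the thresholds alone. With 1 floor for the arrays they were 0.00 for H9 minus BG03, -0.23 for H9 minus ES01 and -0.26 for BG03 minus ES01. The pairs share arrays and are not independent.

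**Figure D4:**
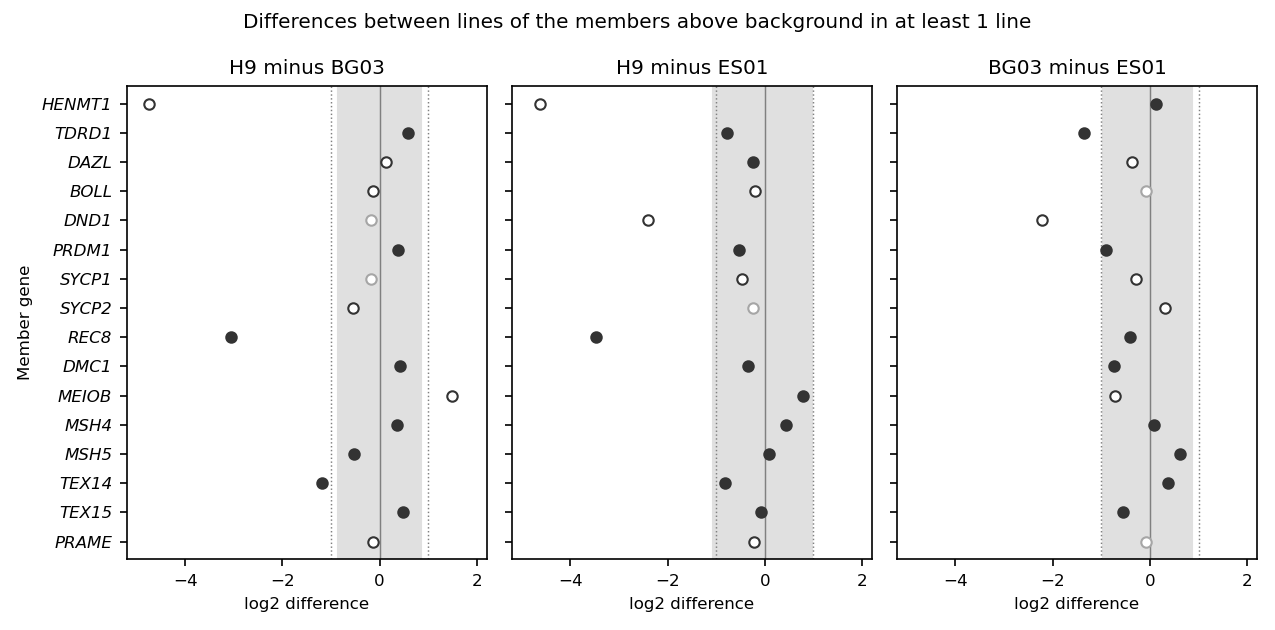
Difference in log2 intensity of each member for H9 minus BG03, H9 minus ES01 and BG03 minus ES01. Filled points are above background in both lines, open points in 1 of them and pale points in neither. An open point is a bound except for PRAME and BOLL, whose H9 values lay under the other thresholds. Dotted lines mark 2-fold and the grey band the middle 95% of all 11004 genes. HENMT1 and REC8 lie far to the left in the first pairs and inside the band in the third.

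Marker lists of cell types were summed to show what else differed between the lines. Pluripotent markers summed to 35076, 41289.9 and 40118 units in H9, BG03 and ES01, a sum carried by LEFTY1 (10809, 14074 and 11243 units), CRIPTO (7979.7, 9087 and 8768 units) and DNMT3B. Single markers ran differently: NANOG (130.1, 123 and 127 units) was highest in H9, and POU5F1 (269.6, 287 and 195.2 units) and ZFP42 (364, 779.7 and 247 units) were lowest in ES01. Mesoderm markers (4 of 10 above background in all lines) summed to 1881, 1703 and 3595 units, and the ES01 excess lay in ACTC1 (1739, 1541 and 3335.5 units) and TEK (29.4, 48.15 and 162 units). KDR (60.6, 44.4 and 47.9 units) was highest in H9 and HAND1 (17.7, 34.7 and 15.7 units) in BG03, and TBXT, MESP1, TBX6 and CDH5 were not above background. Fibroblast markers (5 of 10) summed to 3523, 2702 and 3695 units, mostly VIM (2346, 1476.5 and 2104 units), THY1 (752, 851 and 824 units) and COL1A2 (310.3, 229 and 582 units), and COL3A1 was not above background. The dimmer ones ran in different directions. LUM (10.13, 48.9 and 10.13 units) passed in BG03 alone, and DCN (30.5, -0.6 and 26.4 units) in H9 and ES01. TWIST1 (9.67, 24.5 and 45.4 units), not above background in H9, was highest in ES01, as were COL1A1 and PDGFRB. FAP passed in H9 alone. Endoderm markers (9 of 9) summed to 1974, 2123 and 2331 units, led by CXCR4 (468, 518 and 592 units), CER1 (285, 314 and 438 units) and GATA6 (292, 314 and 366 units). AFP (148.1, 321.8 and 383 units), SOX17 and GATA4 were also highest in ES01. TTR (81.5, 12.8 and 20.97 units), APOA1 (309.1, 286.6 and 147.2 units) and FOXA2 ran against that sum and were highest in H9. Neuroectoderm markers (3 of 9) summed to 1519, 1523.5 and 1800.2 units, mostly TUBB3 (1348, 1269 and 1575 units), with NES (70.9, 99.2 and 107 units) and DCX (34.4, 76.3 and 55.4 units). OLIG2 (38.8, 52.75 and -5.43 units) ran against that sum and was not above background in ES01. PAX6 (3.8, 14.8 and 24.2 units) was not above it in H9, nor ZIC1 (22.7, 7.8 and 25.4 units) in BG03. Trophoblast markers (2 of 10, GATA3 at 51.8, 32.9 and 62.3 units and HAND1) summed to 107, 109 and 97.1 units, and CDX2 and CGA were not above background. Their part in the results was not tested. In such bulk RNA, fewer cells of a type and less RNA per cell cannot be told apart.

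The CpG content of the promoters was compared with that of all genes. Windows of 300 bases, 250 before to 50 after the outermost start, were found in RefSeq (GRCh38.p14) for 27 of 33 measured members. The ratio of observed to expected CpG had a median of 0.79 for the 14 members not above background in any line, against 0.42 for the 4027 genes of that class among all genes. A ratio of at least 0.6 was reached by 71.4% of these members and 40.1% of all such genes. Among members above background in all lines the median was 0.79, against 0.84 for all such genes. DDX4 (0.12), BMP15 (0.16) and STRA8 (0.00) were CpG-poor, and MAEL (1.12), SMC1B (1.17) and MOV10L1 (1.05) were the richest of those not detected. The motif TTCCCGC, searched on both strands, lay in 7 of 27 members (25.9%), against 8.84% of all genes measured. It lay in REC8, SYCP1, SYCP2, SMC1B, SPO11 and MSH5, all of meiosis, and TDRD9. The E-box CACGTG lay in TDRD1 and DND1 (7.41%), against 8.86% of all genes. Such matches are descriptions of letters in a window, and no test was made.

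**Figure D5:**
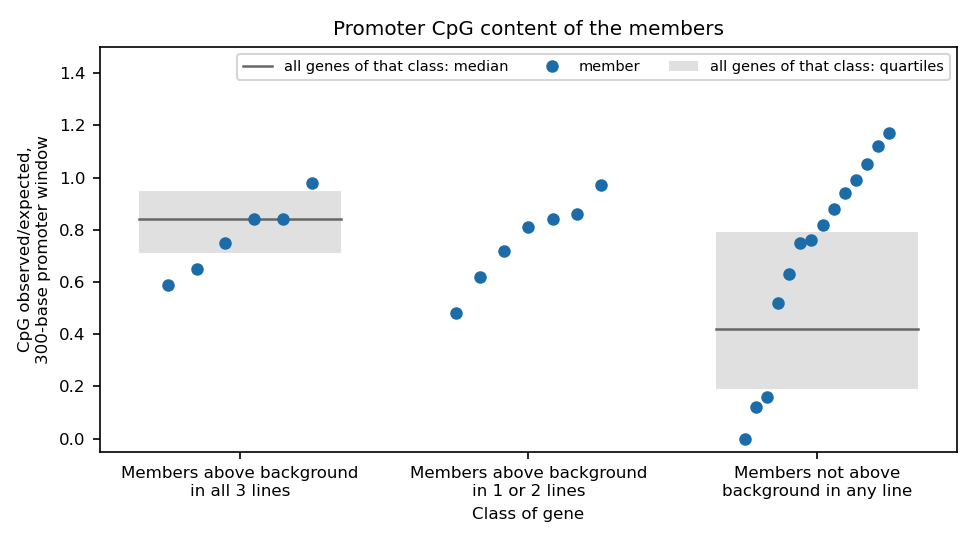
Ratio of observed to expected CpG in the 300-base promoter window of each member (points), by whether it was above background in all 3 lines, in 1 or 2, or in none; grey boxes span the quartiles and lines give the medians of all genes of the same class (0.84 and 0.42). Most members in the last class lie above its median.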

How the data were processed

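RNA of 3 human ES cell lines was measured on Illumina bead arrays, 1 per line. Per the labels, RNA was isolated with TRIzol and labelled with Cy3. The deposited values are 1 intensity for each of 47293 probes, some below 0; no source used here gives the authors' software or any scaling. The deposited bead files give a green intensity for every bead, per the file headers; they served only for technical error, leaving out beads farther than 3 scaled MADs (median absolute deviations) from the median of their bead type. Probes were named by the platform annotation: 18468 have 1 gene symbol, 0 several and 28825 are unnamed here; 18451 were matched by gene ID to RefSeq (GRCh38.p14).

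All probes but 4 bacterial controls were quantile-normalized with limma 3.58.1 (R 4.3.3, with data.table at version 1.17.8). The probe with the highest mean stood for a gene. A value below the threshold was raised to it ahead of the log2 step. A fold against such a value is a lower bound where the detected value exceeds that threshold. For PRAME and BOLL, above background in H9 alone, the H9 value lay under the BG03 and ES01 thresholds. Their log2 differences then reflect the thresholds and bound no fold. Genes above background in at least 1 line were compared between lines by fold, with no test. How often a gene passes 2-fold between repeat arrays of 1 line was not tested, because each line had 1 array. That holds for genes near the threshold and for genes well above it. Python 3.11.15 with numpy 2.4.6, pandas 2.3.3 and matplotlib 3.10.9 was used.

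The members and lists were chosen with earlier results of these data known. Every member is named; of each other list, the 3 with the highest mean among those above background in all lines, and in the piRNA, meiosis, primordial germ cell and oocyte lists every gene 2-fold different between lines. Other list genes given were chosen after their values were seen; neighbours were given for members at least 4-fold different. Alternatives covered normalization, background, probe rule, floor, filter, fold and each line left out.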

Additional observations from a re-analysis of the deposited data

How the results depend on the processing

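No paired analysis was possible because the 3 lines form 1 group with 1 array each, and every value describes these arrays. Of 99 recomputed counts and medians, 87 stayed near the value reported and 12 did not. A median counted as near if it moved by less than the SD of the medians of the 3 lines, a wide allowance. With arrays scaled to the same median, H9 minus ES01 moved from -0.29 to -0.01 and BG03 minus ES01 from -0.33 to -0.06. With the 75th percentile scaling, H9 minus BG03 moved from -0.14 to 0.04. These moves counted as near, so the medians of members are not stable. Those under the scaling to the same median came with a shift in the medians of all genes, given further on. None of the 2-fold differences changed sign. With the 99th percentile as background, 5 members were above it in all lines and 10 in at least 1, and 0 differed 2-fold between BG03 and ES01. With a second set of background probes, 9 members were above background in all lines and 17 in at least 1. With the lowest probe of each gene, 5 were above background in all lines, as MSH5, PRDM1 and TEX14 dropped out. With a floor of 50 units, 0 members differed between BG03 and ES01 and that median was 0.00. Among genes above background in all lines, 2, 1 and 1 members differed 2-fold for H9 against BG03, H9 against ES01 and BG03 against ES01, and the H9 minus BG03 median was 0.36. A 3-fold threshold left 2 members between H9 and BG03 and 1 between BG03 and ES01. HENMT1 and REC8 passed 2-fold against H9 under each setting that kept them. Leaving out each line in turn gave 8 to 10 members above background in all remaining lines and 14 to 15 in at least 1. Scaling the arrays to the same median shifted the median of all genes to 0.27 for H9 minus ES01 and 0.34 for BG03 minus ES01; the share of 2-fold calls higher in H9 against ES01 was then 78.9% of all genes against 43.6%, and among members MEIOB joined as higher in H9, 1 of 4. For BG03 against ES01 that share was 81.9% against 39.5%, and with the 75th percentile scaling 56.3% against 46.2% for H9 against BG03. MEIOB and TDRD1 lost their 2-fold calls with the 99th percentile background or the floor of 50 units, as did DND1 between BG03 and ES01 (-0.94), and DND1 lost both calls with the floor of 50 units. TEX14 lost its call with the mean or the lowest probe of a gene.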

Other observations

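Genes of sperm and of the gonad's supporting cells were examined as further lists, beside the 59.8% of all genes above background in all lines. Of 24 measured cancer-testis and sperm genes, 3 were above background in all lines: DPPA4 (652, 841 and 970.5 units in H9, BG03 and ES01), a chromatin protein that pluripotent cells also make, SSX2 (24.7, 16.1 and 31.0 units) and XAGE2 (11.7, 17.6 and 18.1 units), both testis antigens. LDHC, the sperm lactate dehydrogenase, read 37.5 units in H9 and was not above background in BG03 and ES01. Of 15 somatic gonad genes, 5 were above background in all lines, among them GATA4 (68.7, 77.4 and 83.0 units), STAR (35.4, 32.6 and 43.6 units) and FOXL2 (39.97, 32.1 and 37.5 units).

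AMH, the anti-Müllerian hormone, measured 23.3, 50.02 and 20.03 units and was highest in BG03, with a difference of -1.10 for H9 minus BG03 and 1.32 for BG03 minus ES01 on the log2 scale. CLDN11, a claudin of Sertoli cells and myelin, was not above background in H9 and measured 39.6 and 122 units in BG03 and ES01. AMH, CLDN11 and LDHC were picked after their values had been seen, and no test was made.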
